A study of Mus musculus with 12 samples.

Results

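Ephrins and their Eph receptors were followed in 12 RNA-seq libraries of 3T3-L1 adipocytes, in which the DNA methyltransferase Dnmt3a was overexpressed or knocked down. The genes described are 10 of the 27473 features in the deposited count table: the ligands Efnb1, Efnb2, Efna1, Efna4 and Efna5, and the receptors Epha2, Epha3, Ephb2, Ephb3 and Ephb4. Efnb2 was selected on its measured fold changes in both Dnmt3a comparisons, where it stood out, so its fold changes there are given as a description with no test. The 9 others are relatives of Efnb2 from the family of 22 mouse ephrin and Eph receptor genes, and the 12 family genes outside the list are given beside them. Each of the 10 symbols had a single feature in the table.

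3T3-L1 is a mouse fibroblast line that turns into fat-storing adipocytes in culture, here under dexamethasone, IBMX (a phosphodiesterase inhibitor) and insulin, followed by 2 more days of insulin. Mature adipocytes received lentivirus on day 8 and were harvested 4 days later. The groups, each of 3 libraries, numbered 4: Dnmt3a and GFP, both in the pCDH expression vector, and shDnmt3a and shScr, which carried a hairpin against Dnmt3a and a scrambled hairpin. The sources used here do not name the Dnmt3a hairpin. They call the libraries of a group biological triplicates without saying that each had a culture of its own, so the p-values below cover the spread among 3 libraries, part of which may be technical. All cells are of 1 line and all carried virus. DNA methylation was not measured in these libraries.

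Ephrins are ligands fixed to the cell surface, and Eph receptors, the largest family of receptor tyrosine kinases, bind them on a touching cell. A-type ephrins are held by a lipid (GPI) anchor and mostly bind EphA receptors, whereas B-type ephrins cross the membrane and mostly bind EphB receptors. The receptor-bearing cell signals forward through its kinase and GTPase regulators, and the ephrin-bearing cell can signal in reverse. The pair is best known for guiding axons, setting tissue boundaries and patterning blood vessels, where Efnb2 marks arterial and Ephb4 venous endothelium.

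Total counts per library were 29084732 to 40762934 for Dnmt3a, 34796944 to 47341091 for GFP, 35013931 to 40973267 for shDnmt3a and 30406492 to 37403514 for shScr. Levels below are CPM, the counts relative to library size after TMM scaling over all 12 libraries, and are per kb of feature wherever genes are compared with each other. The manipulation itself was checked first: Dnmt3a stood at 2734, 2789 and 2742 CPM in Dnmt3a libraries, against 92.8, 90.2 and 96.7 CPM in GFP libraries, and at 40.8, 39.3 and 39.4 CPM in shDnmt3a libraries, against 81.3, 86.5 and 78.7 CPM in shScr libraries. In log2, Dnmt3a differed by 4.88 (SE 0.0412) on overexpression and by -1.04 (SE 0.0462) on knock-down.

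Dnmt3a methylates cytosine in the CG dinucleotide, so the letters around 4 gene starts are shown first, with every CG in capitals. Efnb2 is the gene the family is centred on, Efna5 and Epha2 were the relatives that fell on overexpression, and Ephb2 the one that rose. The windows run 250 bases before to 50 bases after each RefSeq start, 5′ to 3′ on the gene's strand, in build GRCm38.p6. They are chr8:8661193-8661492 for Efnb2, chr17:62881268-62881567 for Efna5, chr4:136835963-136836262 for Ephb2, all on the minus strand, and chr4:141300971-141301270 on the plus strand for Epha2.
Efnb2: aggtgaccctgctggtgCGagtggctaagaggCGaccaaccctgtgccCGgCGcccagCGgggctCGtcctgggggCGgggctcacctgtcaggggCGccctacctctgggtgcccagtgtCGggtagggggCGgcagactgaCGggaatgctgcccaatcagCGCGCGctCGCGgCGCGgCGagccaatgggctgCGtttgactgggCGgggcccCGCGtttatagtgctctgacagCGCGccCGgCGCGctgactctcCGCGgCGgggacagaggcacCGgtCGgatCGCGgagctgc
Efna5: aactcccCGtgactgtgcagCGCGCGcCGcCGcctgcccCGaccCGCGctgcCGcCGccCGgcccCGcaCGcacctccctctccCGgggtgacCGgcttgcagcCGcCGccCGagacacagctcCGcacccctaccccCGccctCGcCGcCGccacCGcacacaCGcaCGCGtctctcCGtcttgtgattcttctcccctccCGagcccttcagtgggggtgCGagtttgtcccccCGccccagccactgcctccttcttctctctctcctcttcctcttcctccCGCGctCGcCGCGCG
Ephb2: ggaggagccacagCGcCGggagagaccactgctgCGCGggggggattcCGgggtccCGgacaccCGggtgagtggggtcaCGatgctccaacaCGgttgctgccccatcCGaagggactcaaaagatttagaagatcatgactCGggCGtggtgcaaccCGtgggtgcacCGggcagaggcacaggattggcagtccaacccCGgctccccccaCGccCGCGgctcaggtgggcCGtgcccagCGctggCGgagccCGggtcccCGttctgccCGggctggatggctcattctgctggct
Epha2: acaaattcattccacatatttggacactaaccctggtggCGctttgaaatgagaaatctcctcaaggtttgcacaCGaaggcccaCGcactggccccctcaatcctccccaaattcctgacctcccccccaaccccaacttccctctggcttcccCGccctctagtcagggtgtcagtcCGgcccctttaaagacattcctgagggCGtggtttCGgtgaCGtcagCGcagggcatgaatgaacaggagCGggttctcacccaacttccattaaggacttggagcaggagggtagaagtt
The Efnb2 window held 35 CG, and 6.95% of the 32851 RefSeq mouse promoters held at least as many. Efna5 was the densest of the 10 genes with 38 CG (4.95% of promoters as dense or denser), and Ephb2 held 24 (20%). Epha2 was the sparsest with 10 (43.5%), still above the median of 7 CG over all promoters. The others lay between, at 11 for Efna4, 14 for Efnb1 and for Ephb4, 18 for Epha3, 20 for Efna1 and 23 for Ephb3. Among family genes outside the list, Epha8 stood out with 56 CG, a density that 0.195% of promoters reached. Of the 22 family genes 21 had a promoter in the RefSeq table, including all 10 listed ones; Efnb3 had none.

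**Figure D1:**
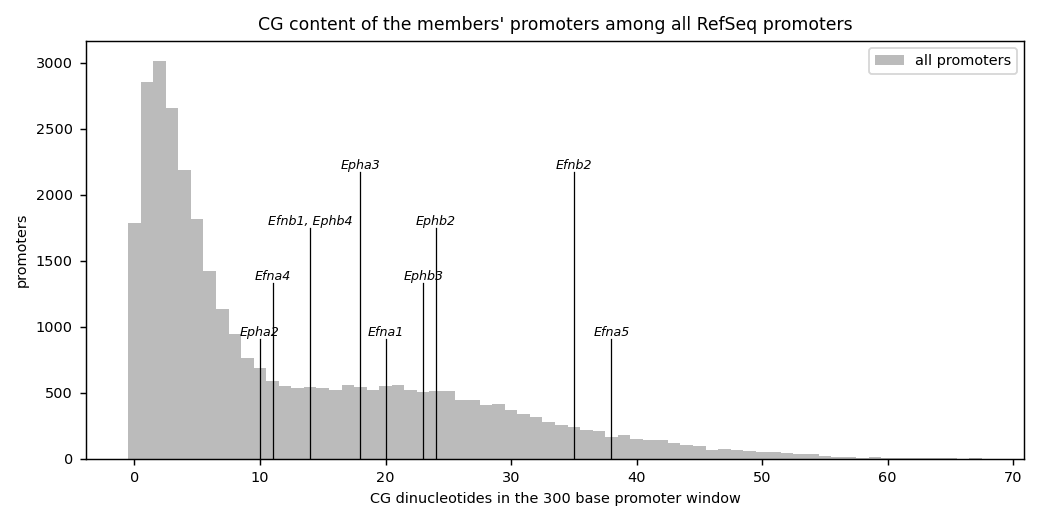
Number of CG dinucleotides in the 300 base promoter window (horizontal axis) for all 32851 RefSeq promoters (grey bars, vertical axis: number of promoters) with the 10 listed genes marked by lines. Efnb2 (35 CG) and Efna5 (38 CG) sit in the sparse right tail, and Epha2 (10 CG) lies nearest to the median of 7 CG.

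A pair of short motifs was looked for on both strands of the same windows. ACGTG, a form of the core of the hypoxia response element, was in the window of Ephb3 and in none of the other 9 genes. Of all promoters 19.6% held ACGTG. The core can also read GCGTG, which was not searched for. GCGTG does occur, on either strand, in the windows printed above for Efna5, Ephb2 and Epha2. Absence of ACGTG is thus not absence of the core. GTGGGAA, the sequence that the Notch effector Rbpj is known to bind, was in none of the 10 windows and in 6.38% of all promoters. Neither motif contains the other, and a match or its absence in such a window is a description of the letters.

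Per length, the family was modestly expressed in these adipocytes. Ephb3, an EphB receptor, averaged 8.06 CPM per kb over the 12 libraries and was the 1 family gene above the median of 6.21 CPM per kb of all 13893 genes tested in both Dnmt3a comparisons. Next came the ligand Efnb1 at 5.83 and the receptor Ephb2 at 5.54 CPM per kb, then the ligands Efna4 at 3.63 and Efna1 at 3.44 CPM per kb. Efna5 (1.44), Epha2 (1.4) and Efnb2 (1.38 CPM per kb) formed a lower tier together with Ephb6 (1.27) and Ephb4 (1.09). Within each tier the ranges of the group means overlapped, so neighbours in this order are not separated. The highest EphB receptors were thus several times above their ligand Efnb2, which stood at the 26.3rd percentile of all genes. Epha3 was close to absent, with 7 counts in all 12 libraries together and 9 libraries at 0.

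**Figure D2:**
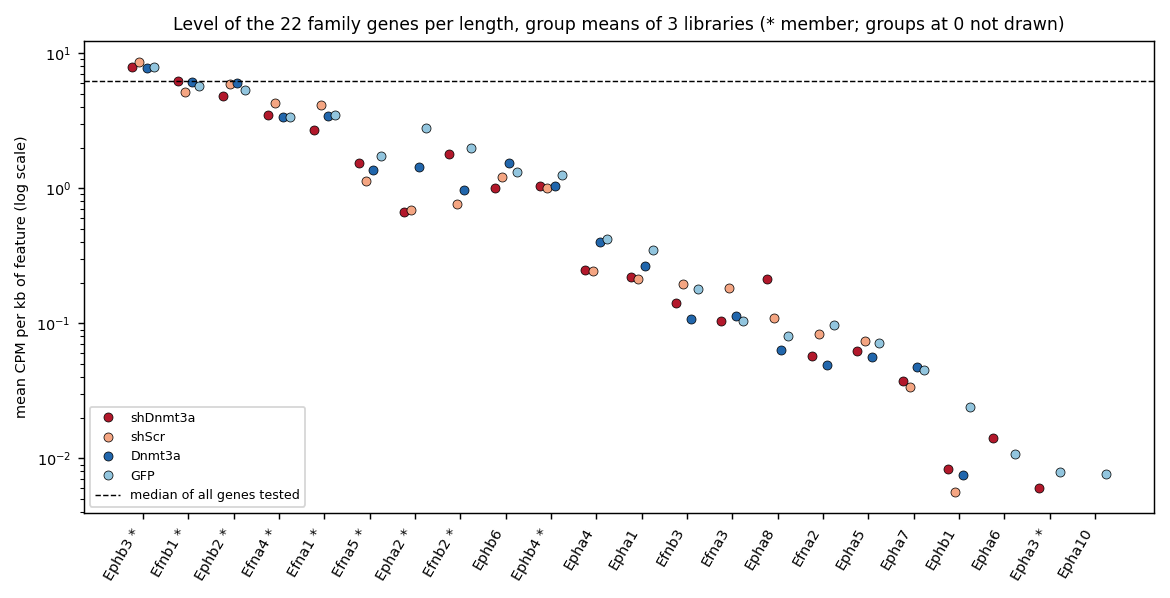
Mean CPM per kb of feature on a log axis for each of the 22 family genes (horizontal axis, ordered by mean; an asterisk marks a listed gene) in the groups shDnmt3a, shScr, Dnmt3a and GFP, each a mean of 3 libraries; groups at 0 are not drawn. The dashed line is the median of all genes tested in both Dnmt3a comparisons (6.21 CPM per kb), which Ephb3 alone exceeded on average. Efnb2, which was selected on its fold changes, and Epha2 show the widest separation between groups among the genes above 1 CPM per kb.

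Efnb2 encodes ephrin-B2, a transmembrane ligand of EphB receptors and the preferred partner of Ephb4; the gene lies at chr8:8617434-8661239 on the minus strand in NCBIM37, the assembly also called mm9, which the authors aligned to. Efnb2 stood at 4.03, 4.34 and 4.30 CPM in Dnmt3a libraries, against 8.07, 7.83 and 9.93 CPM in GFP libraries. Every Dnmt3a library lay below every GFP library, a log2 difference of -1.02 (SE 0.108), which is 2.03-fold lower. On knock-down Efnb2 stood at 8.60, 7.19 and 7.55 CPM in shDnmt3a libraries, against 3.33, 3.19 and 3.35 CPM in shScr libraries. Here every shDnmt3a library lay above every shScr library, with a log2 difference of 1.25 (SE 0.108), 2.38-fold higher. These values rest on 103 to 386 counts per library. In bulk RNA, fewer expressing cells and less RNA per cell cannot be told apart, for Efnb2 or any gene below.

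The control groups also differed at Efnb2, by a larger log2 difference than those of overexpression and knock-down. The shScr libraries, at 3.19 to 3.35 CPM, lay 2.61-fold below the GFP libraries at 7.83 to 9.93 CPM, a log2 difference of -1.38 (SE 0.110). The group means were 4.22 ± 0.168 CPM for Dnmt3a, 8.61 ± 1.15 CPM for GFP, 7.78 ± 0.731 CPM for shDnmt3a and 3.29 ± 0.0877 CPM for shScr (SD, n = 3 each), so that GFP was highest, followed by shDnmt3a, Dnmt3a and shScr. GFP and shDnmt3a overlapped, whereas the Dnmt3a libraries lay above all shScr libraries. The 2 controls differ in vector backbone and insert and may differ in batch, which cannot be told apart here. Their own Dnmt3a level was 0.18 log2 lower in shScr than in GFP libraries (SE 0.0383, adjusted p = 0.00025, edgeR).

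**Figure D3:**
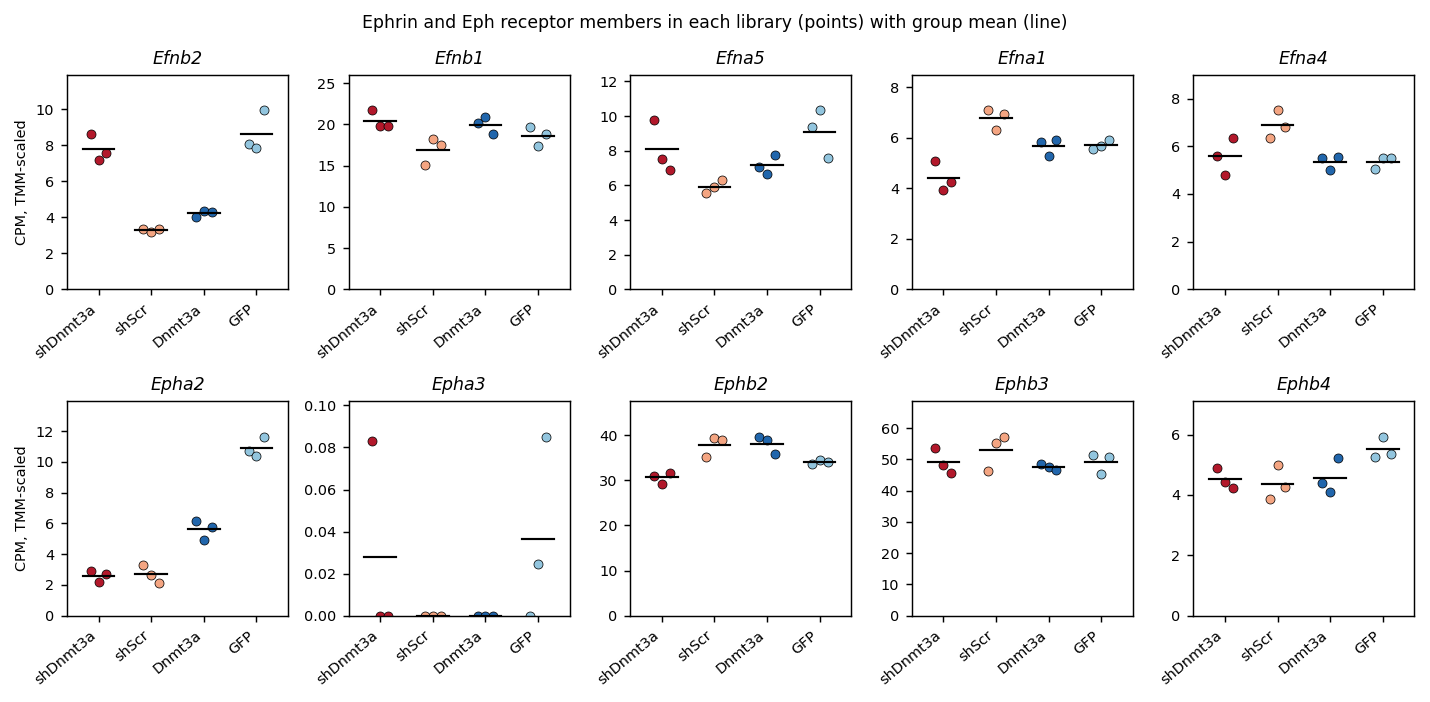
TMM-scaled CPM (vertical axis, starting at 0, scale differs between panels) of the 10 listed genes in each library, shown as points with a line at the group mean, for shDnmt3a, shScr, Dnmt3a and GFP, 3 libraries each. Efnb2 is low in Dnmt3a (4.03 to 4.34 CPM) and shScr (3.19 to 3.35 CPM) and high in shDnmt3a and GFP, whereas Epha2 is low in both hairpin groups (2.14 to 3.33 CPM), intermediate in Dnmt3a and highest in GFP.

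The relatives of Efnb2 were compared by edgeR's quasi-likelihood test over all genes, with Benjamini-Hochberg adjustment, and called at an adjusted p under 0.05. Of the 9 genes other than Efnb2, 8 had enough counts to be tested, Epha3 being the exception. On overexpression 1 of the 8 rose and 2 fell, where 27.2% of all 14168 genes were called, 14.3% higher and 12.9% lower. On knock-down 2 rose and 3 fell, where 45.8% of 14115 genes were called, 23.3% higher and 22.5% lower. Between the controls, 3 were higher and 3 lower in shScr than in GFP libraries, where 46.5% of 14491 genes were called, 23.7% higher and 22.8% lower. Counted instead by groups that did not overlap, 1 of the 8 genes was higher and 2 were lower on overexpression (20.4% and 19.2% of all genes), 2 and 3 on knock-down (26.0% and 26.8%) and 3 and 3 between the controls (26.3% and 25.5%). The genes were picked with earlier results known, and with so many genes called these counts are not a result about the family.

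Efnb1, at chrX:96331469-96344330, encodes ephrin-B1, the other broadly expressed transmembrane ephrin. Efnb1 stood at 21.7, 19.8 and 19.8 CPM in shDnmt3a libraries, against 15, 18.3 and 17.5 CPM in shScr libraries. The groups did not overlap, and Efnb1 rose by 0.27 in log2 (SE 0.0745, adjusted p = 0.00504, edgeR). On overexpression Efnb1 stood at 20.1, 20.9 and 18.8 CPM in Dnmt3a libraries, against 19.6, 17.4 and 18.9 CPM in GFP libraries. These overlapped, at a log2 difference of 0.09 (SE 0.0666, adjusted p = 0.327). So Efnb1 was not called on overexpression, and between the controls its difference of -0.14 (SE 0.0721, adjusted p = 0.120) was a small one beside that of Efnb2. That comparison alone passed without shScr replicate 2 (log2 difference -0.20, adjusted p = 0.0468; 0.0468 to 0.596 over its alternatives). Efnb3, the remaining ephrin-B gene and not among the 10, had 9 to 31 counts per library; it stood at 0.431, 0.320 and 0.280 CPM in Dnmt3a libraries, against 0.522, 0.766 and 0.454 CPM in GFP libraries, a log2 difference of -0.76 (SE 0.335) that was not called (adjusted p = 0.0891).

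Among the A-type ligands, Efna5 was the gene whose pattern over the groups came nearest to that of Efnb2. Efna5 encodes ephrin-A5, a GPI-anchored ligand that besides EphA receptors binds Ephb2, and lies at chr17:62953533-63230666. It stood at 7.05, 6.68 and 7.78 CPM in Dnmt3a libraries, against 9.36, 10.3 and 7.58 CPM in GFP libraries. Efna5 fell by 0.34 in log2 (SE 0.1, adjusted p = 0.00896, edgeR), although Dnmt3a replicate 3 lay above GFP replicate 3. On knock-down it stood at 9.79, 7.53 and 6.90 CPM in shDnmt3a libraries, against 5.54, 5.92 and 6.33 CPM in shScr libraries. Those groups did not overlap and Efna5 rose by 0.45 (SE 0.117, adjusted p = 0.00356). In shScr libraries it was 0.62 log2 below GFP libraries (-0.62, SE 0.117, adjusted p = 6.1e-05), again as for Efnb2. The overexpression call was lost without Dnmt3a replicate 2 (-0.30, adjusted p = 0.0521) and without GFP replicate 2 (-0.25, adjusted p = 0.0876), and its adjusted p ran between 0.000889 and 0.0876 over the alternatives. Over the 12 libraries log2 CPM of Efna5 and Efnb2 had a Pearson r of 0.761, a description in which the points share 4 groups.

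Efna1, Efna3 and Efna4 are neighbours on chromosome 3, all on the minus strand within 66.3 kb (chr3:89075655-89141950), with gaps of 32.8 and 10.4 kb. They encode ephrin-A1, first found as a gene induced by TNF in endothelial cells, ephrin-A3 and ephrin-A4. On knock-down Efna1 stood at 5.08, 3.92 and 4.25 CPM in shDnmt3a libraries, against 7.09, 6.32 and 6.95 CPM in shScr libraries. The groups were apart and Efna1 fell by 0.61 in log2 (SE 0.111, adjusted p = 0.000135, edgeR), opposite in direction to Efnb2. Efna4 stood at 5.60, 4.81 and 6.34 CPM in shDnmt3a libraries, against 6.34, 7.50 and 6.79 CPM in shScr libraries, barely apart, and fell by 0.30 (SE 0.111, adjusted p = 0.0322). Efna3, scarce and not among the 10, stood at 0.222, 0.457 and 0.282 CPM in shDnmt3a libraries, against 0.602, 0.553 and 0.520 CPM in shScr libraries, with a log2 difference of -0.77 (SE 0.33) that was not called (adjusted p = 0.0663). All 3 neighbours thus had a negative fold change on knock-down, whereas on overexpression the log2 differences were -0.00 (SE 0.103) for Efna1, 0.18 (SE 0.368) for Efna3 and 0.01 (SE 0.106) for Efna4, none called (adjusted p = 0.993, 0.763 and 0.974), and the signs of all 3 changed under some alternatives.

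The control groups differed at the same neighbours. Efna1 stood at 7.09, 6.32 and 6.95 CPM in shScr libraries, against 5.54, 5.68 and 5.90 CPM in GFP libraries (log2 difference 0.25, SE 0.0995, adjusted p = 0.0406, edgeR). Efna4 stood at 6.34, 7.50 and 6.79 CPM in shScr libraries, against 5.06, 5.51 and 5.51 CPM in GFP libraries (0.37, SE 0.104, adjusted p = 0.00452), and Efna3 was 0.82 higher (SE 0.329, adjusted p = 0.0426). Those 2 weaker calls did not hold up: that of Efna1 was lost under 7 of 13 alternatives (adjusted p 0.027 to 0.119), among them leaving out any shScr or GFP library other than shScr replicate 2 (log2 0.22 to 0.27), and that of Efna3 under 9 of 12 (0.0361 to 0.12), among them leaving out any of the 6 libraries (0.75 to 0.92). The knock-down call of Efna4 was lost with DESeq2 (-0.30, adjusted p = 0.061), without shDnmt3a replicate 1 (-0.31, 0.0633) or 2 (-0.20, 0.195) and without shScr replicate 2 (-0.23, 0.142) or 3 (-0.31, 0.0584), within a range of 0.00927 to 0.195, whereas that of Efna1 held under all 13. Efna3 was called lower without shDnmt3a replicate 2 (-1.14, adjusted p = 0.0271; 0.0271 to 0.229 over its alternatives). Efna4 overlaps a non-coding gene on the other strand by 179 bases and Efna3 another by 3469 bases, and no source used here says whether reads were counted by strand.

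The receptor with the largest differences was Epha2, the ephrin-A1 receptor best known from epithelial and tumour cells, at chr4:140857155-140885299. Epha2 stood at 6.18, 4.94 and 5.74 CPM in Dnmt3a libraries, against 10.7, 10.4 and 11.6 CPM in GFP libraries. It fell by 0.95 in log2 (SE 0.0945, adjusted p = 1.08e-09, edgeR), or 1.93-fold, close to the size given above for Efnb2. On knock-down it stood at 2.89, 2.21 and 2.73 CPM in shDnmt3a libraries, against 3.33, 2.63 and 2.14 CPM in shScr libraries. These overlapped, with a log2 difference of -0.06 (SE 0.165, adjusted p = 0.809) whose sign changed under some alternatives. So Epha2 was not called on knock-down, where Efnb2 was 2.38-fold higher; whether the effects of the 2 manipulations on Epha2 differ was not tested. Between the controls Epha2 was 4.00-fold lower in shScr than in GFP libraries (log2 difference -2.0, SE 0.122, adjusted p = 3.87e-14), beside the -0.95 on overexpression. Both hairpin groups were thus low, at 2.14 to 3.33 CPM, and both pCDH groups higher, at 4.94 to 11.6 CPM. The overexpression and control calls held under each of the 13 alternatives.

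Epha3, a receptor of ephrin-A ligands at chr16:63543364-63863984, was not tested for want of counts. It had 0 counts in all 3 Dnmt3a libraries, against 0, 1 and 3 counts in GFP libraries, and 3, 0 and 0 counts in shDnmt3a libraries, against 0 in all 3 shScr libraries. The 0 counts of the Dnmt3a and shScr groups allow up to 0.0293 and 0.0290 CPM over each group (3 counts over its libraries). The adipocytes thus gave no measurable level of this receptor. Epha6, outside the list, was likewise scarce, with 0 counts in all Dnmt3a libraries, against 4, 1 and 2 counts in GFP libraries, and 5, 2 and 1 counts in shDnmt3a libraries, against 0 in all shScr libraries.

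Ephb2 had the opposite sign to Efnb2 in all 3 comparisons. It encodes a kinase that binds B-type ephrins and ephrin-A5 and lies at chr4:136203454-136391903. Ephb2 stood at 39.7, 38.9 and 35.8 CPM in Dnmt3a libraries, against 33.7, 34.4 and 34.0 CPM in GFP libraries. It rose by 0.16 in log2 (SE 0.0526, adjusted p = 0.0198, edgeR), a small step between groups that did not overlap. On knock-down it stood at 31.0, 29.3 and 31.6 CPM in shDnmt3a libraries, against 35.2, 39.4 and 39.0 CPM in shScr libraries. Ephb2 fell by 0.30 (SE 0.0565, adjusted p = 0.000216), and in shScr libraries it was 0.15 above GFP libraries (SE 0.0537, adjusted p = 0.0194). The knock-down call held under all 13 alternatives. The overexpression call was lost without Dnmt3a replicate 1 (0.13, adjusted p = 0.123) or 2 (0.15, 0.0737) and without GFP replicate 1 (0.15, 0.0502) or 3 (0.16, 0.0591), over a range of 0.00844 to 0.123, and the control call without shScr replicate 2 (0.13, 0.0913) or 3 (0.14, 0.069) and GFP replicate 1 (0.15, 0.0528) or 3 (0.15, 0.0501), over 0.00284 to 0.0913. Over the 12 libraries log2 CPM of Ephb2 and Efnb2 had a Pearson r of -0.765, again over 4 groups.

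Ephb3, at chr16:21204828-21223378, encodes a receptor known for positioning cells along the intestinal crypt and was the family's highest gene per length. It stood at 48.5, 47.6 and 46.6 CPM in Dnmt3a libraries, against 51.3, 45.2 and 50.8 CPM in GFP libraries (log2 difference -0.05, SE 0.05, adjusted p = 0.506, edgeR). In shDnmt3a libraries it stood at 53.5, 48.1 and 45.7 CPM, against 46.1, 55.3 and 57.2 CPM in shScr libraries (-0.10, SE 0.0684, adjusted p = 0.250). The groups overlapped in both, and the controls did too (0.11, SE 0.0639, adjusted p = 0.186). The shScr library of replicate 1 was low: without it Ephb3 was called lower on knock-down (-0.19, adjusted p = 0.0067; 0.0067 to 0.676 over the alternatives) and higher in shScr than in GFP (0.20, 0.00533; 0.00533 to 0.604).

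Ephb4, the receptor paired with ephrin-B2 in developing vessels, lies at chr5:137791337-137819897. It stood at 4.40, 4.09 and 5.21 CPM in Dnmt3a libraries, against 5.27, 5.93 and 5.36 CPM in GFP libraries, and at 4.88, 4.43 and 4.23 CPM in shDnmt3a libraries, against 3.87, 5.00 and 4.26 CPM in shScr libraries. Ephb4 was not called in either, with a log2 difference of -0.26 (SE 0.114, adjusted p = 0.0853, edgeR) on overexpression, where the groups were narrowly apart, and of 0.05 (SE 0.121, adjusted p = 0.793) on knock-down, where they overlapped and the sign changed under some alternatives. Ephb4, whose preferred partner is Efnb2, was therefore not shown to move with Efnb2 on overexpression or knock-down. In shScr libraries Ephb4 was 0.33 below GFP libraries (-0.33, SE 0.115, adjusted p = 0.0195), a call lost without shScr replicate 1 (-0.24, 0.123) or 3 (-0.30, 0.0612) or GFP replicate 2 (-0.27, 0.0866), over 0.0058 to 0.123. Without Dnmt3a replicate 3 the overexpression difference passed (-0.38, adjusted p = 0.0335; 0.0335 to 0.27). Over the 12 libraries log2 CPM of Ephb4 and Efnb2 had a Pearson r of 0.51, again over 4 groups. Ephb4 shares 33 bases with Zan on the other strand.

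In the whole family of 22, 17 genes were tested in each comparison. Leaving Efnb2 out, 1 rose and 2 fell on overexpression, with a median log2 difference of -0.06 over the 16, against -0.01 over all genes. On knock-down 3 rose and 3 fell, with a median of -0.08, against -0.00 over all genes. Between the controls 4 were higher and 5 lower in shScr than in GFP libraries, with a median of -0.04, against -0.01 over all genes. The shares called, over all genes, are those given above, and these counts too are a description. Among family genes with over 1 CPM in every library, Efnb2 and Epha2 had the largest log2 differences on overexpression and between the controls, and Efnb2 and Efna1 those on knock-down. Efnb2 was selected on its fold changes in the Dnmt3a comparisons, which share their libraries with that of the controls. Its own place in this order is therefore no result.

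Of the family genes outside the list, Epha8, a receptor known from the brain, rose on knock-down. It stood at 0.915, 1.11 and 1.01 CPM in shDnmt3a libraries, against 0.660, 0.527 and 0.357 CPM in shScr libraries, a log2 difference of 0.97 (SE 0.262, adjusted p = 0.00504, edgeR) that held under all 12 alternatives that could test it. On overexpression Epha8 was not called (-0.29, SE 0.371, adjusted p = 0.615), and its 6 to 46 counts per library limit both values. Epha4, which binds ephrins of both types, was called in neither Dnmt3a comparison (-0.06 and 0.05, adjusted p = 0.782 and 0.854), but stood at 2.41, 1.61 and 1.85 CPM in shScr libraries, against 3.66, 2.74 and 3.77 CPM in GFP libraries, 0.80 lower in log2 (-0.80, SE 0.156, adjusted p = 0.0001). Epha1 was also lower in shScr (-0.68, SE 0.198, adjusted p = 0.0054), a call lost without GFP replicate 3 (-0.40, 0.0917; 0.000323 to 0.0917), and it overlaps Zyx on the other strand by 1660 bases; without GFP replicate 1 it was called lower on overexpression (-0.55, adjusted p = 0.0326; 0.0326 to 0.797). Epha5, Epha7 and Ephb6, a receptor without kinase activity, were called nowhere, apart from Ephb6 on overexpression without GFP replicate 3 (0.35, adjusted p = 0.0406; 0.0406 to 0.539). Efna2, Epha3, Epha6, Epha10 and Ephb1 had too few counts to be tested.

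**Figure D4:**
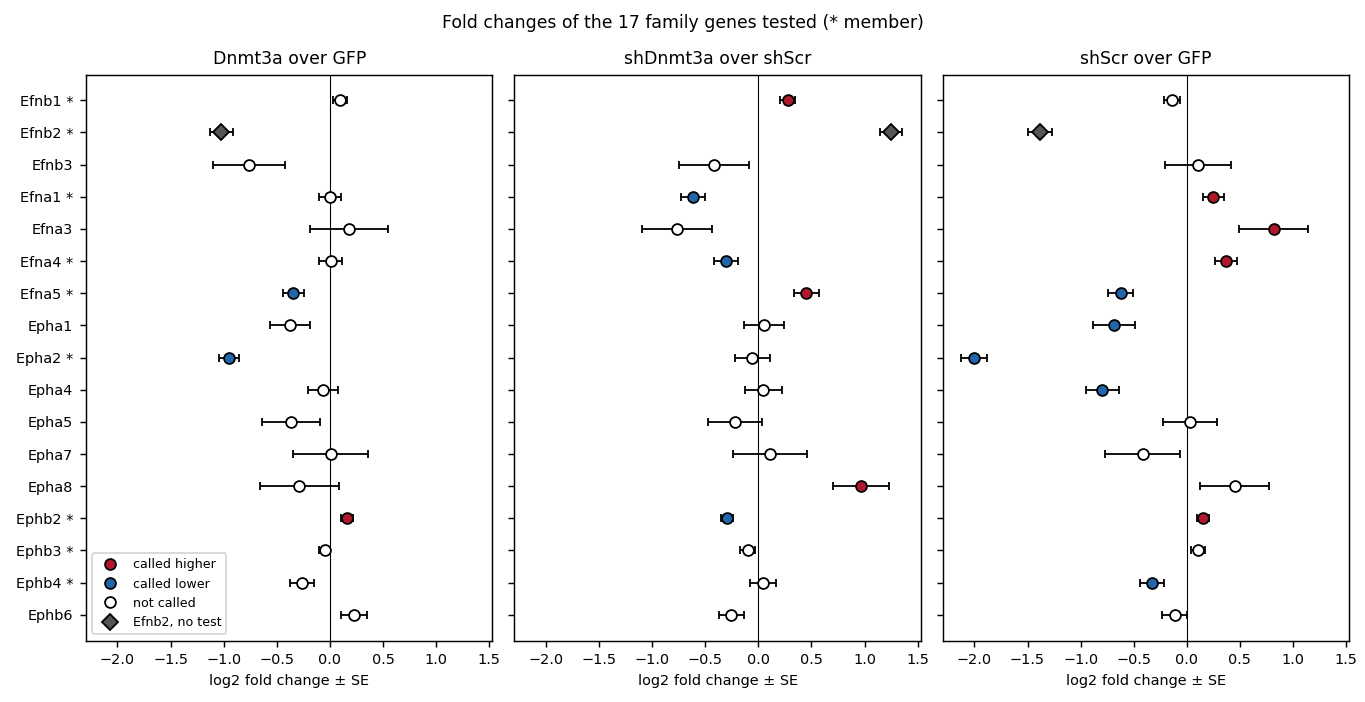
Log2 fold change with its standard error (horizontal axis) of the 17 family genes tested, in 3 panels: Dnmt3a over GFP, shDnmt3a over shScr, and shScr over GFP; an asterisk marks a listed gene, filled points are calls at an adjusted p under 0.05 and the diamond is Efnb2, for which no test is given. Efnb2 lies at -1.02, 1.25 and -1.38 across the panels and Efna5 follows with the same signs at -0.34, 0.45 and -0.62, whereas Epha2 lies at -0.95, -0.06 and -2.0.

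The comparisons share libraries, since the GFP and shScr libraries that serve as controls of the manipulations are also those compared with each other, so that a low or high control group moves 2 comparisons at once. For Efnb2 the low shScr level enters both its knock-down and its control difference, and the same holds for the low shScr levels of Efna5 and the high ones of Efna1, Efna4 and Ephb2.

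Lists of genes that act beside the family were counted as a description, in the same fits. Over all genes, 14.3% were called higher and 12.9% lower on overexpression, 23.3% and 22.5% on knock-down, and 23.7% and 22.8% between the controls. The counts below are to be read beside these shares and are not a result about the pathways. For these genes too the shScr level enters both the knock-down and the control differences. In the cell that bears the receptor, forward signalling runs through adaptors, Src kinases and GTPase regulators, and 27 of 28 such genes were tested. On overexpression 1 rose and 7 fell, on knock-down 9 rose and 5 fell, and 5 were higher and 12 lower in shScr than in GFP libraries; median log2 differences were -0.06, 0.06 and -0.07. Pak1, a kinase activated by Rac and Cdc42, had the signs of Efnb2 throughout: it averaged 8.80 ± 0.494 CPM in Dnmt3a and 11.8 ± 0.226 CPM in GFP libraries (SD, n = 3 each), and 7.39 ± 0.352 CPM in shDnmt3a and 5.28 ± 0.192 CPM in shScr libraries. In log2 Pak1 fell by 0.42 (SE 0.0813, adjusted p = 0.000123, edgeR) on overexpression, rose by 0.49 (SE 0.0942, adjusted p = 0.000271) on knock-down and was 1.16 lower in shScr than in GFP (-1.16, SE 0.0834, adjusted p = 1.73e-12). Vav3, the 1 gene that rose on overexpression, had the signs opposite to Efnb2 throughout. It rose by 0.16 (SE 0.0571, adjusted p = 0.0306, edgeR) on overexpression and fell by 0.29 (SE 0.0598, adjusted p = 0.000537) on knock-down. Between the controls Vav3 was higher in shScr than in GFP libraries (0.47, SE 0.0567, adjusted p = 6.75e-08). Kalrn, an exchange factor that acts under EphB receptors in neurons, did otherwise and fell in both, by 0.50 (SE 0.0762, adjusted p = 3.14e-06) on overexpression and by 0.28 (SE 0.0665, adjusted p = 0.00186) on knock-down. Grb10, an adaptor that binds Ephb1, had the largest change on knock-down, a rise of 1.15 (SE 0.199, adjusted p = 8.92e-05) to 2.02 ± 0.118 CPM in shDnmt3a, against 0.902 ± 0.224 CPM in shScr libraries. Rac1, the GTPase itself, rose by 0.38 on knock-down (SE 0.035, adjusted p = 2.93e-08). Rac1 was also lower in shScr than in GFP libraries (-0.26, SE 0.0363, adjusted p = 6.03e-07) and was not called on overexpression (-0.03, SE 0.0398, adjusted p = 0.630).

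In the cell that bears an ephrin-B, reverse signalling runs through PDZ proteins and other partners of its tail. Of 12 such genes tested, 1 rose and 3 fell on overexpression, 3 rose and 2 fell on knock-down, and 4 were higher and 2 lower in shScr than in GFP libraries; median log2 differences were -0.12, -0.11 and 0.11. Ptpn13, a phosphatase, had the largest called change on overexpression at -0.30 (SE 0.108, adjusted p = 0.0394, edgeR), and Pard6a, a polarity protein, that on knock-down at -0.28 (SE 0.0834, adjusted p = 0.00906). Stat3, which can be recruited by ephrin-B1, fell by 0.14 (SE 0.039, adjusted p = 0.00747, edgeR) on overexpression and rose by 0.18 (SE 0.0354, adjusted p = 0.000422) on knock-down. Sdcbp, or syntenin, a PDZ protein that binds the ephrin-B tail, rose in both, by 0.12 (SE 0.0404, adjusted p = 0.02) and 0.21 (SE 0.0397, adjusted p = 0.000246).

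Of the proteases that cut ephrins and Eph receptors, 8 were tested; 3 were called on overexpression, all higher, 2 rose and 1 fell on knock-down, and 2 were higher and 2 lower in shScr than in GFP libraries, with median log2 differences of 0.05, -0.04 and 0.08. Adam10, the main sheddase of ephrins, averaged 106.6 ± 2.05 CPM in shDnmt3a and 63.3 ± 2.98 CPM in shScr libraries (SD, n = 3 each). It rose by 0.76 in log2 (SE 0.0418, adjusted p = 2e-11, edgeR). Mmp14, a membrane metalloprotease that can cut Epha2, went the other way and fell by 0.64 (SE 0.0357, adjusted p = 2.29e-11), to 333.2 ± 12.5 CPM in shDnmt3a, against 522.1 ± 11.9 CPM in shScr libraries. The shScr level enters both changes: in shScr against GFP libraries Adam10 differed by -0.45 (SE 0.0425, adjusted p = 4.98e-10) and Mmp14 by 0.36 (SE 0.0372, adjusted p = 2.82e-09). On overexpression neither was among the called genes, which were Psenen and Aph1a, subunits of gamma-secretase, and Adam12, at log2 differences of 0.34, 0.12 and 0.13. Of the ubiquitin ligases and phosphatases that end Eph signalling, 4 were tested: Ptpn1 fell by 0.13 (SE 0.0473, adjusted p = 0.0325) on overexpression Cblb rose by 0.37 (SE 0.0544, adjusted p = 1.51e-05) on knock-down, and Cbl and Cblb were lower in shScr than in GFP libraries (-0.42 and -0.35), with medians of -0.05, 0.08 and -0.22 over the 4.

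In vessels Efnb2 is a known target of Notch, and 9 of 14 Notch pathway genes were tested in each Dnmt3a comparison. On overexpression 3 were called, all lower, and on knock-down 3 rose and 1 fell; between the controls 1 of 10 was higher and 4 were lower in shScr than in GFP libraries, with median log2 differences of -0.22, 0.06 and -0.32. The same 3 genes, Rbpj, Jag1 and Notch3, were those that fell on overexpression and rose on knock-down. The gene that fell on knock-down was Notch2 (-0.14, SE 0.0533, adjusted p = 0.0406, edgeR), at 130.5 to 147.4 CPM in the group means. It was not called on overexpression (-0.05, adjusted p = 0.426) and was higher in shScr than in GFP libraries (0.13, adjusted p = 0.0453). Hes1, at 25.1 to 30.9 CPM in the group means, was called in neither Dnmt3a comparison (-0.03 and 0.06, adjusted p = 0.765 and 0.458). It was lower in shScr than in GFP libraries (-0.30, SE 0.0595, adjusted p = 0.0001, edgeR). Whether Notch signalling bears on Efnb2 was not tested. Rbpj, the DNA-binding effector of Notch, averaged 88.8 ± 0.975 CPM in Dnmt3a and 127.5 ± 2.73 CPM in GFP libraries (SD, n = 3 each), and 90.6 ± 2.94 CPM in shDnmt3a and 66.04 ± 0.787 CPM in shScr libraries. In log2 Rbpj fell by 0.52 (SE 0.0395, adjusted p = 1.48e-12, edgeR), rose by 0.46 (SE 0.0398, adjusted p = 1.33e-08) and was 0.95 lower in shScr than in GFP (-0.95, SE 0.0373, adjusted p = 1.39e-18). Jag1, a Notch ligand, fell by 0.22 (SE 0.0411, adjusted p = 9.51e-05) on overexpression and rose by 0.51 (SE 0.0416, adjusted p = 5.27e-09) on knock-down. Notch3, a receptor at 0.423 to 1.32 CPM in the group means, fell by 0.69 (SE 0.23, adjusted p = 0.023) and rose by 0.78 (SE 0.295, adjusted p = 0.0365). Between the controls both were lower in shScr than in GFP libraries, Jag1 by a log2 difference of -0.53 (SE 0.0412, adjusted p = 7.99e-12) and Notch3 by one of -1.67 (SE 0.255, adjusted p = 3.18e-06).

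VEGF signalling, which meets ephrin-B2 at the receptors of growing vessels, had 6 of 9 genes tested in each Dnmt3a comparison: 2 rose and 2 fell on overexpression, and 3 rose and 1 fell on knock-down, while 1 of 7 was higher and 4 were lower in shScr than in GFP libraries, with medians of -0.04, 0.11 and -0.20. Vegfa, the chief vessel growth factor and an abundant product of adipocytes, rose on knock-down to 499.3 ± 14.3 CPM in shDnmt3a, against 396.6 ± 16 CPM in shScr libraries (log2 0.34, SE 0.0367, adjusted p = 2.9e-07, edgeR). The low shScr level enters this rise: Vegfa differed by -0.20 in shScr against GFP libraries (SE 0.0361, adjusted p = 3.91e-05). On overexpression Vegfa was not called (0.05, SE 0.0369, adjusted p = 0.340). Nrp1, a VEGF coreceptor, rose by 0.22 (SE 0.037, adjusted p = 1.56e-05) on overexpression and fell by 0.29 (SE 0.0342, adjusted p = 8.45e-07) on knock-down. Vegfc, the lymphatic vessel factor, had the signs of Efnb2, falling by 0.38 (SE 0.112, adjusted p = 0.0097) and rising by 0.47 (SE 0.102, adjusted p = 0.00086).

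The genes whose log2 CPM ran most like Efnb2 over the 12 libraries, among 11895 genes with at least 1 CPM on average, were Filip1l (Pearson r 0.978), Lphn3 (0.974), Errfi1 (0.973), Skil (0.972) and Kpnb1 (0.971). Filip1l encodes a filamin-binding protein, Lphn3 an adhesion receptor, Errfi1 a feedback inhibitor of the EGF receptor, Skil a repressor of TGF-beta signalling and Kpnb1 importin beta. Filip1l averaged 9.19 ± 0.563 CPM in Dnmt3a and 19.02 ± 0.881 CPM in GFP libraries, and 17.9 ± 1.29 CPM in shDnmt3a and 6.66 ± 0.256 CPM in shScr libraries (SD, n = 3 each). The step was smaller in the abundant Kpnb1, at 324.7 ± 1.27 CPM in Dnmt3a and 367.4 ± 10.2 CPM in GFP libraries, and 357.6 ± 4.75 CPM in shDnmt3a and 297.4 ± 3.74 CPM in shScr libraries. Opposite to Efnb2 ran Acadm (r -0.981), an enzyme of fatty acid oxidation, Mrpl42 (-0.98), a mitochondrial ribosomal protein, Suclg1 (-0.98) and Fh1 (-0.975), enzymes of the citric acid cycle, and Coq9 (-0.975), which serves coenzyme Q synthesis. Acadm averaged 683.8 ± 11.1 CPM in Dnmt3a and 539.6 ± 0.23 CPM in GFP libraries, and 568.1 ± 15.3 CPM in shDnmt3a and 718.8 ± 14.8 CPM in shScr libraries. The 12 points fall into 4 groups and share their scaling, so these r are a ranking and no test. Filip1l and Lphn3 were already known, from earlier results of these data, to share the direction of Efnb2 in both Dnmt3a comparisons.

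The labelled cell type was checked against its markers. All 12 adipocyte genes of a fixed list had at least 1 CPM in every group, and their summed level was 27609 to 28283 CPM in Dnmt3a and 22346 to 23256 CPM in GFP libraries, and 18993 to 19430 CPM in shDnmt3a and 19300 to 19840 CPM in shScr libraries. Lpl and Fabp4 had the highest levels of the list, at means of 7047 and 4905 CPM over the 12 libraries. All 12 genes rose on overexpression, whereas 3 rose and 4 fell on knock-down. Between the controls 4 were higher and 6 lower in shScr than in GFP libraries (23.7% and 22.8% of all genes). Beside these and the marker counts below, the shares of all genes called higher and lower were 14.3% and 12.9% on overexpression, and 23.3% and 22.5% on knock-down. Preadipocyte and fibroblast genes, 8 in number, summed to 601 to 609 CPM in Dnmt3a and 665 to 731 CPM in GFP libraries, and to 680 to 759 CPM in shDnmt3a and 766 to 837 CPM in shScr libraries. The sum was below its own control in both comparisons, but shDnmt3a overlapped GFP. Of the 8, 1 rose and 3 fell on overexpression, and 1 rose and 5 fell on knock-down. Single genes did not follow the sum: Col1a1 fell by 0.50 (SE 0.0444, adjusted p = 8e-11, edgeR) on overexpression and rose by 0.41 (SE 0.118, adjusted p = 0.00828) on knock-down. Of 10 endothelial markers, relevant because Efnb2 and Ephb4 mark vessels, Egfl7 alone reached 1 CPM in the group means. Cldn5 was at 0 in all shScr libraries. The list summed to 5.24 to 6.18 CPM in Dnmt3a and 4.89 to 5.73 CPM in GFP libraries. In shDnmt3a libraries it summed to 5.82 to 6.30 CPM, and in shScr libraries to 8.61 to 9.14 CPM. Egfl7 carried the high shScr sum, with means of 2.66 CPM in Dnmt3a and 1.98 CPM in GFP libraries, and of 2.92 CPM in shDnmt3a and 6.29 CPM in shScr libraries. On knock-down Egfl7 fell (-1.10, SE 0.116, adjusted p = 2.09e-07, edgeR) and Tek rose (1.42, SE 0.536, adjusted p = 0.0365), of 6 endothelial markers tested. Tek was scarce, with 134 counts over all 12 libraries. It averaged 0.399 ± 0.174 CPM in shDnmt3a and 0.136 ± 0.136 CPM in shScr libraries (SD, n = 3 each). Of 9 macrophage and leukocyte markers 3 reached 1 CPM in the group means and Emr1 was at 0 throughout. Their sums were 17.7 to 20.2 CPM in Dnmt3a and 16.7 to 17.6 CPM in GFP libraries. They were 17.2 to 18.0 CPM in shDnmt3a and 28.3 to 28.9 CPM in shScr libraries. Mpeg1 carried the high shScr sum, with means of 2.79 CPM in Dnmt3a and 3.31 CPM in GFP libraries, and of 5.70 CPM in shDnmt3a and 17.8 CPM in shScr libraries. Between the controls 2 of 7 tested were higher and 3 lower in shScr (23.7% and 22.8% of all genes). Cd14 and Cd68 were among the lower ones (-0.44 and -0.40). Smooth muscle and pericyte genes (6 of 7 in the table, 4 at 1 CPM in the group means) summed to 144 to 149 CPM in Dnmt3a and 136 to 143 CPM in GFP libraries. Their sums were 143 to 150.0 CPM in shDnmt3a and 104 to 111 CPM in shScr libraries. Like sums hid unlike genes: Acta2 averaged 38.3 CPM in Dnmt3a and 47.8 CPM in GFP, but 13.5 CPM in shDnmt3a and 11.9 CPM in shScr libraries. Des averaged 84.6 CPM in Dnmt3a, 73.9 CPM in GFP, 105.5 CPM in shDnmt3a and 78.3 CPM in shScr libraries. The part of these marker levels in the ephrin and Eph receptor values was not tested.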

How the data were processed

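RNA-seq counts of 12 libraries of 3T3-L1 adipocytes were analysed, 3 for each of 4 groups read from the sample labels, with 0 value columns unmapped. The deposited table holds raw whole-number counts for each transcript feature, as the authors left them before any scaling. From the study's methods and the submitters' processing notes, the authors depleted ribosomal RNA, prepared TruSeq libraries, sequenced them on a HiSeq2500 (bcl2fastq 2.17.1.14), aligned reads to mm9 with TopHat2 2.0.14, handled them with Picard 2.2.4 and SAMtools 0.1.19, counted them with featureCounts 1.4.6 on an annotation altered so that transcripts overlap less, and tested with edgeR (version not given in the sources used here). Features keep the deposited length, used for CPM per kb. The labels and the methods differ in how long the virus stayed on the cells.

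After TMM scaling, the quasi-likelihood test of edgeR 4.0.16 (with limma 3.58.1, R 4.3.3) was run on genes kept by filterByExpr (minimum count 10), with Benjamini-Hochberg adjustment over all genes tested; calls needed an adjusted p under 0.05. Dnmt3a against GFP and shDnmt3a against shScr were each fitted on their own 6 libraries, and shScr against GFP in 1 fit of all 12. Their biological coefficients of variation were 3.98%, 4.03% and 4.01%. Replicates differed by more than sampling noise (chi-square per degree of freedom 2.44 to 10.1). Log2 CPM for the likeness ranking used a prior count of 2. A limit for a count of 0 is 3 counts over the group and covers counting error only. The procedure was tested on simulated data.

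The genes, gene lists and tests were chosen with earlier results of these data known. Genes that could be named were every family gene, Dnmt3a, up to 3 called genes with the largest fold change per direction, comparison and pathway list, marker genes, the Notch list gene Hes1, and the 5 highest and 5 lowest correlations with Efnb2. Not every pathway or marker gene of this set is printed. Those printed are thus not always the largest changes of their list. No p is given for Efnb2. Alternatives were RLE size factors, DESeq2 1.42.0, no filter on low counts, a replicate block, at least 1 CPM in 3 libraries, features of 1 symbol summed, another set of libraries in the fit and leaving out each library. Gene positions are from the NCBIM37 annotation; promoters are from RefSeq on GRCm38.p6, and the builds were not mixed.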

Additional observations from a re-analysis of the deposited data

How the results depend on the processing

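Efnb2 kept its direction in all 3 comparisons under all 13 alternatives, with log2 differences of -1.08 to -0.92 on overexpression, 1.17 to 1.30 on knock-down and -1.44 to -1.28 between the controls. The family genes called higher on overexpression, 1 in number (Ephb2), numbered 0 to 1 when single libraries were left out, and without GFP replicate 3 the 1 called was Ephb6 instead. The 4 family genes called higher in shScr than in GFP numbered 2 with DESeq2, 2 with no filter on low counts and 1 to 3 when single libraries were left out; the cause was not tested. Signs reversed for uncalled genes only: on overexpression Efna1 with no filter (0.0016), and when single libraries were left out Efna1 (-0.030 to 0.043), Efna3 (-0.15 to 0.35), Efna4 (-0.038 to 0.050), Epha4 (-0.19 to 0.010) and Epha7 (-0.20 to 0.30). On knock-down, leaving out libraries gave Epha1 (-0.10 to 0.15), Epha2 (-0.19 to 0.11), Epha4 (-0.090 to 0.23), Epha7 (-0.079 to 0.33) and Ephb4 (-0.041 to 0.16), and between the controls Efnb3 (-0.023 to 0.35), Epha5 (-0.088 to 0.28) and Ephb6 (-0.23 to 0.010). Scarce genes could not be fitted under the filter of 1 CPM in 3 libraries.

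No pairing of the libraries by equal replicate numbers was seen. Deviations from the group means of same-numbered libraries correlated at -0.0903 to 0.0128, and not every library correlated best with its own number. With 3 libraries per group a weak pairing could have been missed. With a replicate block the genes called numbered 3853 on overexpression, 6023 on knock-down and 6540 between the controls, against 3850, 6467 and 6736 without the block, and the block moved 1 family call, Efna3 between the controls (log2 0.81, adjusted p = 0.0527 by edgeR).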
